A study of Mus musculus with 6 samples.

Results

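The transcripts described here encode 44 factors of ribosomal RNA (rRNA) processing and ribosome assembly, chosen by gene symbol, with earlier results of these data known. All 44 were found among the 23235 rows of the table, and all 44 were among the 12523 rows with an FPKM (fragments per kilobase of transcript and per unit of mapped reads) above 1 in at least 1 sample. The 2 groups were growing oocytes of Pabpn1-null females, which carried Pabpn1fl/fl;Gdf9-Cre on C57BL/6, and growing oocytes of WT females of the same strain, with 3 samples of 10 pooled oocytes in each. Cre was driven by the oocyte-specific Gdf9 promoter, so that the floxed gene of PABPN1, the nuclear poly(A)-binding protein, was removed in oocytes only. The age of the females sequenced and whether WT females carried floxed alleles are not given in the sources used here. RNA was captured by its poly(A) tail with oligo-dT primers. The samples are called biological replicates in the study, but separate mice are not stated. A p-value here thus sets the genotype difference against the spread among these samples, which may not be that among mice.

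Ribosomes are built in the nucleolus, where RNA polymerase I makes a long precursor that is folded, chemically modified and cut into the mature rRNAs. The small-subunit processome assembles on the precursor of 18S rRNA around the U3 small nucleolar RNA (snoRNA). Box C/D proteins serve the methylation of rRNA and H/ACA proteins its pseudouridylation, in particles whose snoRNAs guide them to the site. Other factors with DEAD-box helicases fold and release the subunits. A growing mouse oocyte makes and stores many ribosomes, and its nucleolus is active until transcription stops at the end of growth.

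The target and the cell type were checked first. Pabpn1 was at 0.595, 0.878 and 1.37 FPKM in the Pabpn1-null samples, against 21.9, 33.4 and 21.8 FPKM in the WT samples. All 12 oocyte markers were expressed, with sums of 18466 to 20362 FPKM in Pabpn1-null and 17038 to 19818 FPKM in WT samples. Single oocyte markers did differ, since 7 of the 12 were called higher and 3 lower in Pabpn1-null oocytes, with Ddx4 at 2.69-fold and Oosp1 at 49.3% of their WT means. The 12 granulosa cell markers summed to 31.7 to 44.5 and 32.1 to 38.9 FPKM, the 8 theca and stromal markers to 1.23 to 1.53 and 0.639 to 1.08 FPKM, and the 8 blood, immune and endothelial markers to 6.73 to 11.2 and 7.83 to 9.61 FPKM, in Pabpn1-null and WT samples in that order. Foxl2 and Amh of granulosa cells and Ptprc of leukocytes were at or below 0.562 FPKM in every sample, and Hba-a1, Hbb-b1 and Cdh5 were listed at 0 in every sample. Other markers were present and some differed. Fshr, Nr5a2 and Kitl of granulosa cells ranged over 3.14 to 5.54, 5.59 to 10.7 and 1.33 to 6.32 FPKM across all samples. Pecam1 of endothelial cells ranged over 5.55 to 8.50 FPKM and Cd68 of macrophages over 0.975 to 3.69 FPKM, and none of these was called as deposited. Inha had 13.1, 18.8 and 5.81 FPKM in Pabpn1-null and 7.24, 3.11 and 5.04 FPKM in WT samples and was called higher, although the groups overlap. Cyp19a1 was called lower, at 3.41, 4.28 and 6.10 FPKM in Pabpn1-null, against 9.25, 13.2 and 20.3 FPKM in WT samples. Star was called higher, at 1.18, 0.928 and 1.33 FPKM in Pabpn1-null, against 0.390, 0.175 and 0.254 FPKM in WT samples. The part of these markers in the results was not tested. Ratios of the lowest values, which step by single reads, placed the depth of Pabpn1-null replicates 1, 2 and 3 at 1.45, 1.39 and 1.31 times that of WT replicate 1, and that of WT replicates 2 and 3 at 1.37 and 1.65 times. Each sample was made of 10 oocytes, but for markers of other cells less RNA per cell cannot be told apart from fewer cells.

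The 44 members moved in both directions. In Pabpn1-null oocytes 11 passed limma's test as higher than in WT oocytes and 7 as lower, and 26 did not pass the threshold (Benjamini-Hochberg adjusted p under 0.05 over all 12523 rows). These 18 members are 40.9% of the list, against a background of 48.1% of all rows, of which 27.9% were higher and 20.2% lower. The genotypes did not overlap for 14 members that were higher and 9 that were lower in Pabpn1-null oocytes, 23 in all, against 58.0% of all rows. The median log2 change was 0.10 over the members and 0.09 over all rows. The members thus changed about as often as other transcripts, and the changes of single members are given below by role. Leaving out Pabpn1-null replicate 1 or 2 brought the count of higher members down to 5 or 6. The count of higher rows over the whole table also fell, from 3491 to 2528 or 2782. With no filter on low rows the calls of Dcaf13, Ddx10, Ddx47, Ddx51, Fbl, Utp14a, Utp18 and Utp3 were lost, and with quantile normalization those of Ddx51, Fbl, Rrp8, Utp14a and Utp3. The calls of Rrp8 (0.33) and Utp3 (0.35) were also lost with median-of-ratios scaling, and those of Utp18 and Utp3 in the fit without a trend.

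FPKM sets each transcript against the reads mapped in its own sample. The study also scaled FPKM to an ERCC spike-in, RNA of known amount added to the lysis buffer, by factors it does not print. Factors were estimated from the study's table of changed transcripts (0.8333 for each Pabpn1-null sample and 1.0, 1.4167 and 1.3077 for the WT samples) and are called spike-in scaling here. With it the median log2 change was -0.38 over the members and -0.36 over all rows. The study, which used the spike-in to evaluate relative mRNA copy number, reported no significant genotype difference in overall transcript level. That report was not reconciled with the lower medians here, so the estimated factors are not a measure of RNA content. Of the members, 2 were then higher and 16 lower, against 9.39% and 35.5% of all rows, and 34 of the 44 log2 changes were negative. The factors lower each Pabpn1-null value and keep or raise each WT value, so with them a fall can only deepen. Utp11l, for example, went from -0.80 to -1.36 and Bop1 from 1.05 to 0.53. All 7 members called lower stayed lower, which is thus no added support for these falls. Ddx47 and Nop2 were the members still called higher. Under both scales, and without any 1 sample, Dkc1, Nhp2, Npm1, Utp11l and Wdr12 were lower and Nop2 and Ddx47 higher in Pabpn1-null oocytes.

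**Figure D1:**
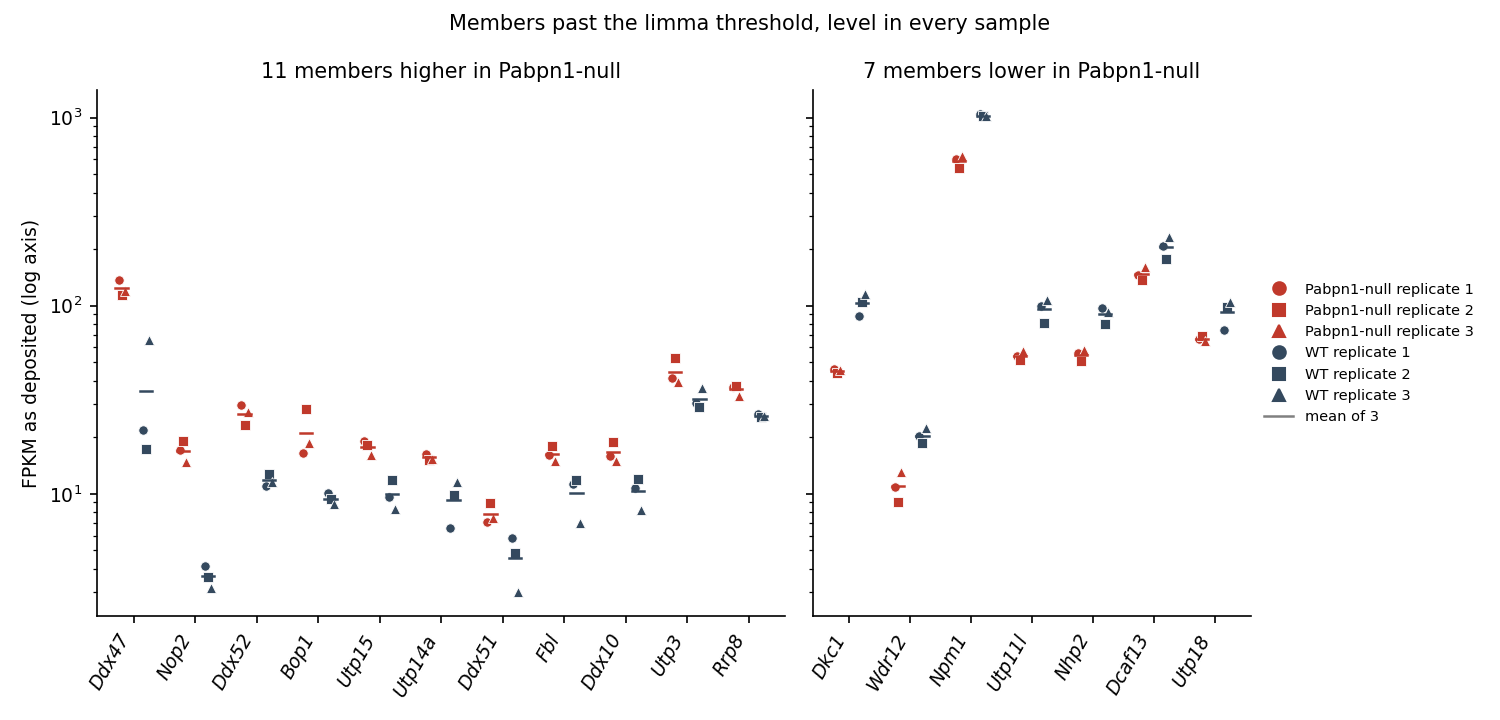
FPKM as deposited (log axis) of the 11 members called higher (left panel) and the 7 called lower (right panel) in each of the 3 Pabpn1-null samples (red, left of each pair) and the 3 WT samples (dark, right of each pair), with lines at the means. No pair of genotypes overlaps, and WT replicate 3 lies apart from the other WT samples for Ddx47. With spike-in scaling 9 of the 11 members in the left panel were not called, and Utp3 and Rrp8 turned negative.

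**Figure D2:**
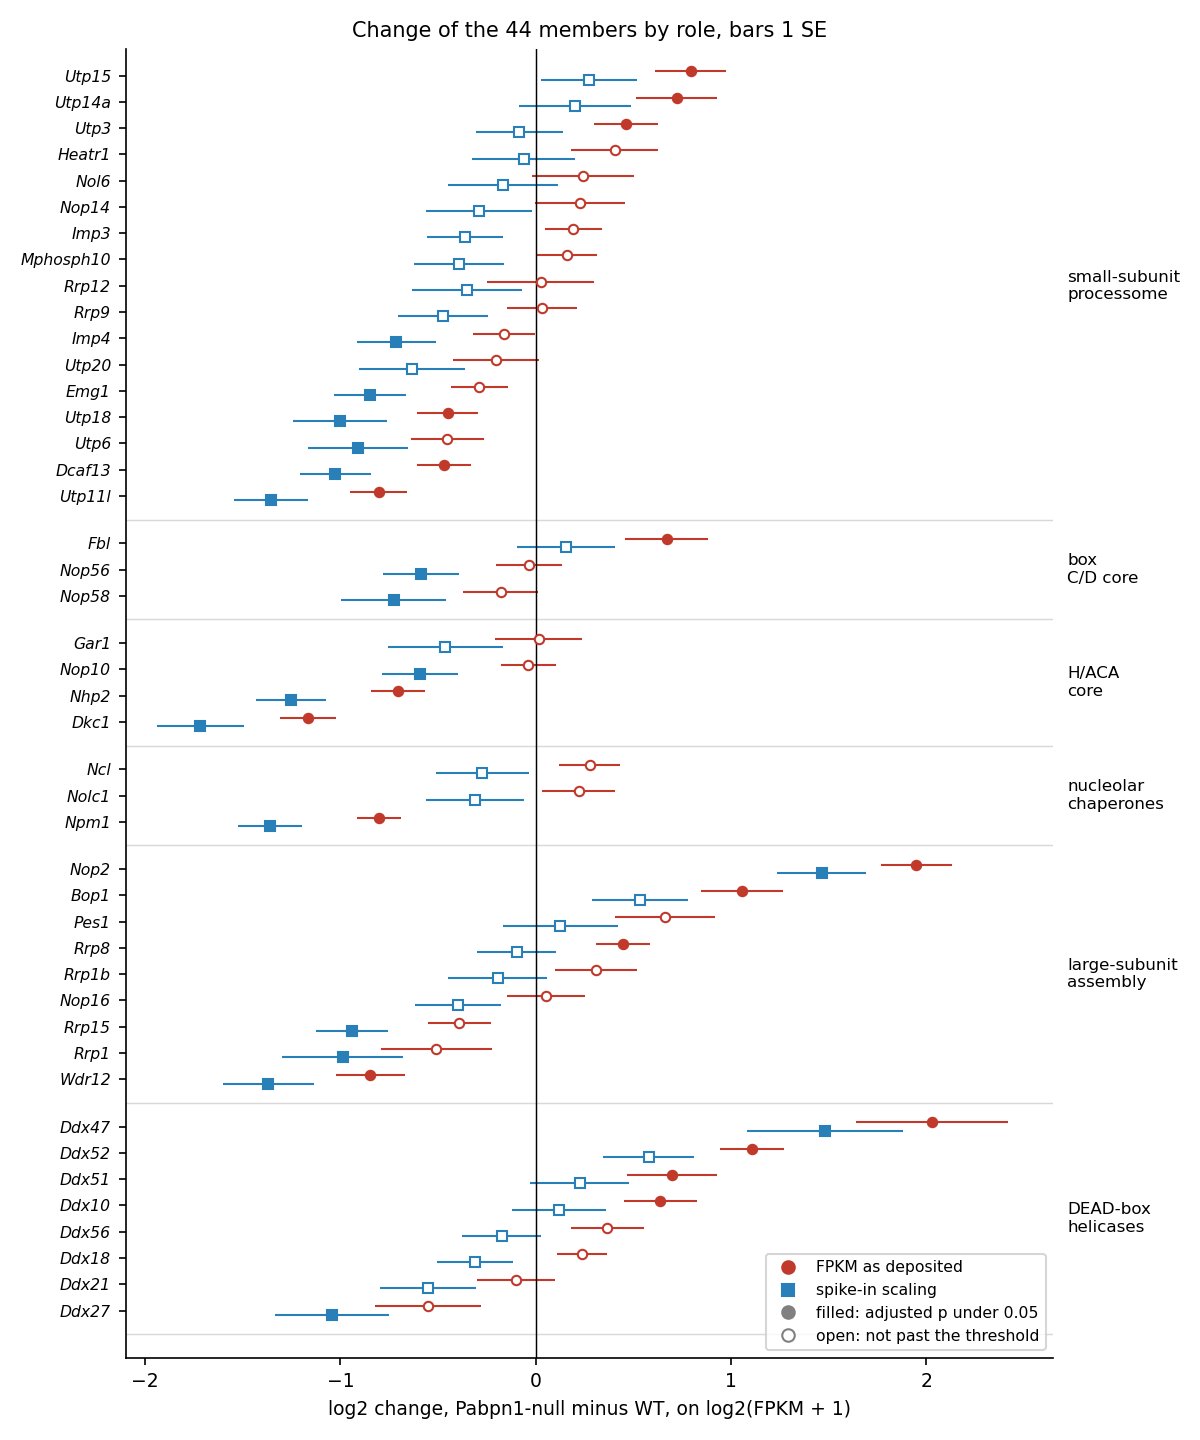
Log2 change (Pabpn1-null minus WT, on log2(FPKM + 1)) of each of the 44 members by role, as deposited (red circles) and with spike-in scaling (blue squares). Bars are 1 standard error, and filled symbols have an adjusted p under 0.05. Spike-in scaling moves each member to the left, so that 2 filled symbols remain above 0 and 16 lie below it.

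The small-subunit processome had 17 members, of which 3 were higher, 3 lower and 11 not called, or 35.3% called against 48.1% of all rows. The median log2 change of these members was 0.03 as deposited and -0.39 with spike-in scaling. Utp11l, a processome subunit, had 53.8, 51.2 and 57.4 FPKM in Pabpn1-null oocytes, against 99.7, 81.0 and 107 FPKM in WT oocytes. It fell to 56.5% of its WT mean, a log2 change of -0.80 with a standard error of 0.15 (adjusted p = 0.00176). Each Pabpn1-null sample was well below each WT sample. Dcaf13, the homolog of yeast Sof1, which is also a substrate receptor of a ubiquitin ligase, had 146, 137 and 161 FPKM in Pabpn1-null and 209, 177 and 232 FPKM in WT oocytes (log2 change -0.47, standard error 0.14, adjusted p = 0.020). Utp18, a UTP-B subunit, had 66.3, 69.4 and 64.6 FPKM in Pabpn1-null and 74.3, 98.5 and 105 FPKM in WT oocytes (log2 change -0.45, standard error 0.16, adjusted p = 0.0363). The 3 falls differ in how firm they are, since that of Utp11l held without any 1 sample. The call of Dcaf13 was lost without Pabpn1-null replicate 1 or 2 or WT replicate 1 or 3 (log2 changes of -0.46, -0.42, -0.46 and -0.38) and at the same total FPKM (-0.27). That of Utp18 was lost without any 1 sample other than WT replicate 1 (-0.48 to -0.35) and at the same total FPKM (-0.25).

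Utp15, a UTP-A subunit needed in human cells for rRNA gene transcription, had 19.2, 18.1 and 16.1 FPKM in Pabpn1-null oocytes, against 9.58, 11.9 and 8.30 FPKM in WT oocytes. It rose 1.79-fold, a log2 change of 0.79 with a standard error of 0.18 (adjusted p = 0.00546). Utp14a, whose yeast homolog activates the helicase that removes U3 from the precursor, had 16.3, 15.2 and 15.3 FPKM in Pabpn1-null and 6.60, 9.83 and 11.5 FPKM in WT oocytes (log2 change 0.72, standard error 0.21, adjusted p = 0.0161). The spread of Utp14a was in WT, where replicate 1 was lowest, and Utp14a missed the threshold without that sample (0.52) or Pabpn1-null replicate 1 (0.69). Utp3, the homolog of yeast Sas10, had 41.5, 52.5 and 39.4 FPKM in Pabpn1-null and 30.3, 29.1 and 36.4 FPKM in WT oocytes (log2 change 0.46, standard error 0.17, adjusted p = 0.0416). Its Pabpn1-null replicate 3 and WT replicate 3 almost met, and its call was lost without any 1 sample other than WT replicate 3 (0.34 to 0.54). With spike-in scaling the log2 changes of Utp15, Utp14a and Utp3 were 0.27, 0.20 and -0.08, and none of them was called.

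The processome members not called ranged widely in level. Emg1, which methylates a pseudouridine of 18S rRNA, was at 240.2 ± 26.0 FPKM in Pabpn1-null and 295 ± 41.7 FPKM in WT oocytes (SD, n = 3 each). Imp3, Imp4 and Mphosph10, which form a complex at the pairing of U3 with the precursor, were at 154 ± 22.3, 80.4 ± 2.73 and 55.7 ± 1.88 FPKM in Pabpn1-null oocytes, against 134 ± 11.9, 91.1 ± 17.9 and 50.2 ± 8.26 FPKM in WT oocytes (SD, n = 3 each). The genotypes overlapped for all of these. The transcripts of the scaffold proteins Heatr1, Nol6, Utp20 and Rrp12 were low, at 6.08 ± 1.51, 3.25 ± 1.58, 2.88 ± 0.626 and 2.30 ± 1.41 FPKM in Pabpn1-null and 4.30 ± 0.797, 2.46 ± 0.412, 3.49 ± 0.904 and 2.07 ± 0.206 FPKM in WT oocytes (SD, n = 3 each). Nop14, a binding partner of Emg1 in yeast, and Rrp9, a protein bound to U3, were at 13.5 ± 2.94 and 9.70 ± 1.50 FPKM in Pabpn1-null and 11.5 ± 3.36 and 9.43 ± 0.825 FPKM in WT oocytes (SD, n = 3 each). Utp6, a partner of Utp18 in UTP-B, had 3.05, 3.72 and 3.66 FPKM in Pabpn1-null, against 4.38, 5.31 and 5.70 FPKM in WT oocytes. These groups did not overlap, yet the log2 change of -0.45 missed the threshold as deposited (adjusted p = 0.0692) and passed it with spike-in scaling (-0.91, adjusted p = 0.0131). Imp4 and Emg1 were also called with spike-in scaling, at -0.71 and -0.85.

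The transcripts of the 4 H/ACA core proteins did not change together as deposited. Dkc1, dyskerin, the pseudouridine synthase, had 45.9, 44.1 and 45.3 FPKM in Pabpn1-null oocytes, against 88.3, 105 and 116 FPKM in WT oocytes. It fell to 43.8% of its WT mean, the largest fall among the 44 members as deposited (log2 change -1.17, standard error 0.14, adjusted p = 2.30e-04). Nhp2, an RNA-binding core protein, had 56.1, 50.6 and 58.2 FPKM in Pabpn1-null, against 97.4, 80.4 and 92.9 FPKM in WT oocytes (log2 change -0.70, standard error 0.14, adjusted p = 0.00258). Both falls were called under every alternative tried, with log2 changes of -1.72 and -1.25 with spike-in scaling. Nop10, the smallest protein of the set, had 157, 128 and 172 FPKM in Pabpn1-null and 153, 155 and 157 FPKM in WT oocytes, a log2 change of -0.04 with a 95% interval of -0.35 to 0.27, and was called lower with spike-in scaling (-0.59). Gar1, which binds the synthase domain of dyskerin, had 5.09, 6.61 and 4.33 FPKM in Pabpn1-null and 3.85, 5.93 and 6.15 FPKM in WT oocytes (log2 change 0.01, 95% interval -0.49 to 0.52). Within each sample, where a scaling factor cancels, the ratio of Dkc1 to Nop10 was 0.292, 0.346 and 0.264 in Pabpn1-null, against 0.575, 0.676 and 0.741 in WT oocytes. The ratio of Nhp2 to Nop10 was 0.357, 0.396 and 0.339 in Pabpn1-null, against 0.635, 0.519 and 0.592 in WT oocytes, so that each Pabpn1-null sample was below each WT sample in both ratios. On the scale of FPKM, which is per length, Gar1 was far below the other 3 in both genotypes.

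Of the box C/D core, Fbl, fibrillarin, the methyltransferase, had 16.1, 18.0 and 14.9 FPKM in Pabpn1-null oocytes, against 11.3, 11.9 and 7.01 FPKM in WT oocytes. It rose 1.62-fold as deposited (log2 change 0.67, standard error 0.21, adjusted p = 0.0257), and was not called with spike-in scaling (0.15). The call was lost without any 1 Pabpn1-null sample (0.60 to 0.73). Nop56 and Nop58, the scaffold proteins of the same particle, were at 64.9 ± 0.868 and 47.0 ± 2.74 FPKM in Pabpn1-null and 67.6 ± 14.0 and 54.5 ± 14.5 FPKM in WT oocytes (SD, n = 3 each). Their log2 changes of -0.04 and -0.18 were within the spread of the WT samples, with 95% intervals of -0.41 to 0.34 and -0.61 to 0.25, and with spike-in scaling they were called at -0.59 and -0.73. Nop56 and Nop58 were close to each other in level, with ratios of 1.38, 1.45 and 1.32 in Pabpn1-null and 1.82, 0.953 and 1.13 in WT samples.

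Npm1, nucleophosmin, a chaperone of the outer nucleolus, was the most abundant member. It had 600.5, 541 and 628 FPKM in Pabpn1-null oocytes, against 1041, 1015 and 1025 FPKM in WT oocytes, and fell to 57.4% of its WT mean (log2 change -0.80, standard error 0.11, adjusted p = 4.22e-04). Npm1 alone made up 23.5 to 25.3% of the FPKM of the 44 members in Pabpn1-null samples and 32.5 to 36.9% in WT samples. The 44 members summed to 2464, 2308 and 2484 FPKM in Pabpn1-null and 2893, 2749 and 3153 FPKM in WT oocytes, or to 1863, 1766 and 1857 and to 1852, 1734 and 2128 FPKM without Npm1. As deposited, most of the lower sum in Pabpn1-null oocytes was thus Npm1, while with spike-in scaling the sum without Npm1 was at 64.5% of its WT mean. The median over the members was 21.9, 26.5 and 22.7 FPKM in Pabpn1-null, against 15.1, 15.2 and 19.5 FPKM in WT samples as deposited, where it was higher in Pabpn1-null, unlike the sum. With spike-in scaling it was 18.3, 22.0 and 18.9 in Pabpn1-null, against 15.1, 21.6 and 25.5 in WT samples, which overlap. Ncl, nucleolin, had 50.0, 50.6 and 48.8 FPKM in Pabpn1-null and 34.1, 41.5 and 48.5 FPKM in WT oocytes, which just did not overlap (log2 change 0.28, adjusted p = 0.173). Nolc1, a chaperone of snoRNA particles, was at 19.4 ± 4.56 FPKM in Pabpn1-null and 16.3 ± 1.07 FPKM in WT oocytes (SD, n = 3 each).

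Among the 9 factors of large-subunit assembly 3 were higher and 1 lower, or 44.4% called against 48.1% of all rows, with a median log2 change of 0.31 as deposited and -0.20 with spike-in scaling. Nop2, which methylates a cytosine of 28S rRNA, had 17.0, 19.0 and 14.8 FPKM in Pabpn1-null oocytes, against 4.15, 3.61 and 3.17 FPKM in WT oocytes. It rose 4.65-fold, with log2 changes of 1.95 as deposited (standard error 0.18, adjusted p = 6.65e-05) and of 1.46 with spike-in scaling, and was called under every alternative. Bop1, Pes1 and Wdr12 form the PeBoW complex of pre-60S particles, and they moved apart. Bop1 had 16.5, 28.3 and 18.7 FPKM in Pabpn1-null, against 10.1, 9.41 and 8.78 FPKM in WT oocytes (log2 change 1.05, standard error 0.21, adjusted p = 0.00272). Wdr12 had 10.9, 9.06 and 13.0 FPKM in Pabpn1-null, against 20.2, 18.6 and 22.4 FPKM in WT oocytes (log2 change -0.85, standard error 0.18, adjusted p = 0.00371). The complex thus held a rise and a fall that both held without any 1 sample, although Bop1 was not called with spike-in scaling (0.53, adjusted p = 0.0986). The ratio of Bop1 to Wdr12, which scaling by a factor for each sample leaves as it is, was 1.51, 3.12 and 1.44 in Pabpn1-null, against 0.499, 0.507 and 0.391 in WT samples. Pes1 had 24.6, 35.4 and 26.8 FPKM in Pabpn1-null and 15.2, 13.3 and 27.4 FPKM in WT oocytes. WT replicate 3 lay within the Pabpn1-null range, and the log2 change of 0.66 (adjusted p = 0.0568) passed the threshold without that sample (0.96).

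Rrp8, which methylates an adenine of 28S rRNA, had 37.2, 37.3 and 33.3 FPKM in Pabpn1-null, against 26.6, 25.6 and 26.0 FPKM in WT oocytes (log2 change 0.44, standard error 0.14, adjusted p = 0.0244). The groups were well apart, but the call was lost without Pabpn1-null replicate 1 or 2 (0.42 each), and the direction turned with spike-in scaling (-0.10). Rrp15 and Rrp1, both factors of pre-60S particles in yeast, were at 41.9 ± 5.01 and 5.28 ± 2.32 FPKM in Pabpn1-null and 55.4 ± 8.25 and 7.78 ± 2.40 FPKM in WT oocytes (SD, n = 3 each). Neither was called as deposited (log2 changes of -0.39 and -0.51), and both were lower with spike-in scaling (-0.94 and -0.99). Rrp1b, a paralog of Rrp1, was at 10.7 ± 1.44 FPKM in Pabpn1-null and 8.56 ± 2.22 FPKM in WT oocytes, and Nop16 at 4.36 ± 0.285 and 4.23 ± 0.975 FPKM (SD, n = 3 each).

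Of the 8 DEAD-box helicases, which open RNA duplexes with ATP, limma called 4 higher and 0 lower as deposited (4 and 0 by unadjusted p), or 50.0% called against 48.1% of all rows, with a median log2 change of 0.50, and 1 was higher and 1 lower with spike-in scaling, with a median of -0.03. Ddx47, the homolog of yeast Rrp3 of 18S rRNA processing, had 137, 114 and 119.7 FPKM in Pabpn1-null oocytes, against 21.9, 17.3 and 65.8 FPKM in WT oocytes. It rose 3.53-fold, or by 2.03 log2 units (standard error 0.39, adjusted p = 0.00225). WT replicate 3 was 1.70 log2 units above the mean of the other WT samples, and without it the log2 change was 2.60. Ddx52, the homolog of yeast Rok1, had 29.7, 23.3 and 27.1 FPKM in Pabpn1-null, against 11.0, 12.8 and 11.6 FPKM in WT oocytes (log2 change 1.11, standard error 0.16, adjusted p = 5.68e-04). With spike-in scaling Ddx47 was called at 1.48 and Ddx52 was not (0.58, adjusted p = 0.0622).

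Ddx10, the homolog of yeast Dbp4, had 15.9, 18.9 and 15.0 FPKM in Pabpn1-null, against 10.8, 12.0 and 8.25 FPKM in WT oocytes (log2 change 0.64, standard error 0.19, adjusted p = 0.0187). Ddx51, the homolog of yeast Dbp6 of large-subunit assembly, had 7.09, 8.93 and 7.47 FPKM in Pabpn1-null, against 5.84, 4.84 and 2.99 FPKM in WT oocytes (log2 change 0.70, standard error 0.23, adjusted p = 0.0301). These are the weaker rises of the group. The call of Ddx10 was lost without Pabpn1-null replicate 1 or 2 (0.66 and 0.55), that of Ddx51 without any 1 sample other than WT replicate 1 (0.48 to 0.76), and both with spike-in scaling (0.12 and 0.22). Ddx18 and Ddx56 did not overlap between the genotypes, at 57.1 ± 1.91 and 36.9 ± 4.13 FPKM in Pabpn1-null and 48.3 ± 0.089 and 28.7 ± 6.18 FPKM in WT oocytes (SD, n = 3 each), but were not called (adjusted p = 0.147 and 0.129). Ddx21, which binds rRNA genes and snoRNAs, was at 4.12 ± 0.759 FPKM in Pabpn1-null and 4.48 ± 0.693 FPKM in WT oocytes (SD, n = 3 each). Ddx27, a helicase of pre-60S particles, had 4.29, 10.3 and 5.21 FPKM in Pabpn1-null and 10.5, 9.41 and 8.85 FPKM in WT oocytes, where Pabpn1-null replicate 2 alone reached the WT range. It was called lower without that sample (-0.88, adjusted p = 0.0123) and with spike-in scaling (-1.04).

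Ddx27 was not the only member for which Pabpn1-null replicate 2 stood apart. Relative to the mean of the other Pabpn1-null samples, replicate 2 was higher by over 0.4 on the log2 scale for 9 members, led by Rrp12 (0.99), Ddx27 (0.98), Nol6 (0.86), Rrp1 (0.86) and Bop1 (0.66), and lower by over 0.4 for Heatr1 (-0.54) and Utp20 (-0.41). The deviation went with the GC content of the transcript, with a Spearman rho of 0.48 over the 44 members and of 0.34 over the 11553 rows matched to 1 coding gene. Genes share the library, so these are descriptions of that library. The part of this sample in the calls can be read from the fit without it, in which Bop1 was at 0.83, Nop2 at 1.87 and Dkc1 at -1.15, all called. The calls of Dcaf13, Ddx10, Ddx51, Fbl, Rrp8, Utp18 and Utp3 were lost in that fit, and Rrp1 was called lower (-0.80, adjusted p = 0.0465 from limma), as was Ddx27.

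**Figure D3:**
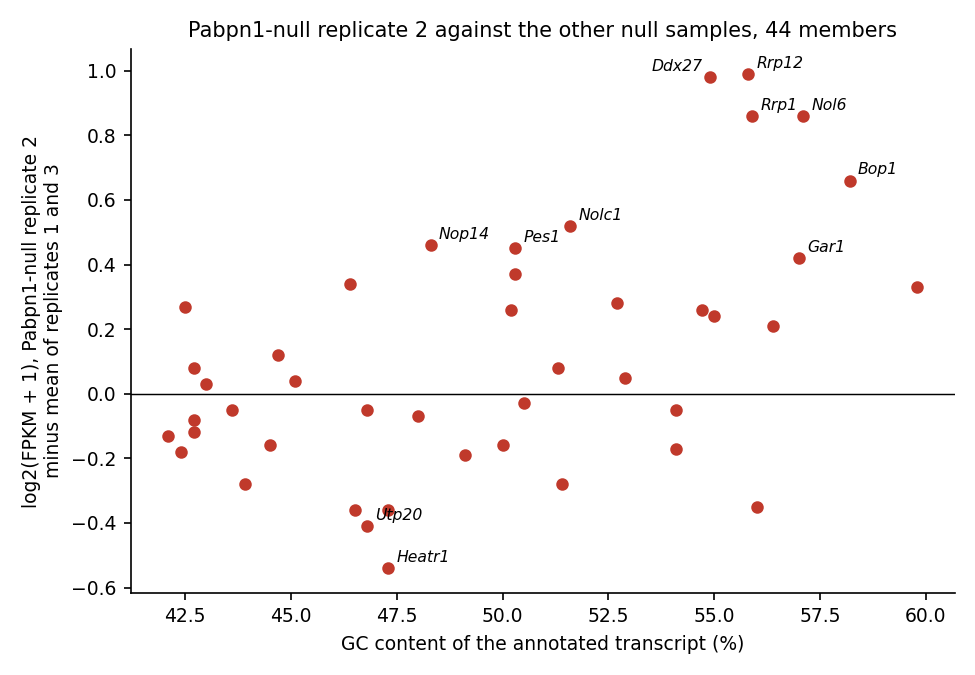
Deviation of Pabpn1-null replicate 2 from the mean of replicates 1 and 3 (log2(FPKM + 1), vertical axis) against GC content of the annotated transcript in percent (horizontal axis), 1 point for each of the 44 members. Rrp12, Ddx27, Nol6, Rrp1 and Bop1, the members with the highest deviations, all lie at GC contents of 54.9 to 58.2%.

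Members that were abundant in WT oocytes tended to be the lower ones. The 11 higher members had WT means of 3.64 to 35.0 FPKM, and the 7 lower members of 20.4 to 1027 FPKM. When the members were split at their median level over all 6 samples, 18.5 FPKM, 4 of the 22 above it were higher and 6 lower (18.2% and 27.3%), while 7 of the 22 below it were higher and 1 lower (31.8% and 4.55%). Over all rows tested, split at their own median of 9.10 FPKM, 29.7% of rows above it were higher and 26.9% lower, and 26.1% of rows below it were higher and 13.5% lower. Across the 44 members the change had a Spearman rho of -0.39 with the WT level (-0.27 over the 11553 rows), which shares the WT samples with the change, and of 0.36 with coding length (0.21 over the 11553 rows). The median coding length was 1797 bases for the higher and 1272 bases for the lower members, against 1335 bases for the 11553 rows.

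**Figure D4:**
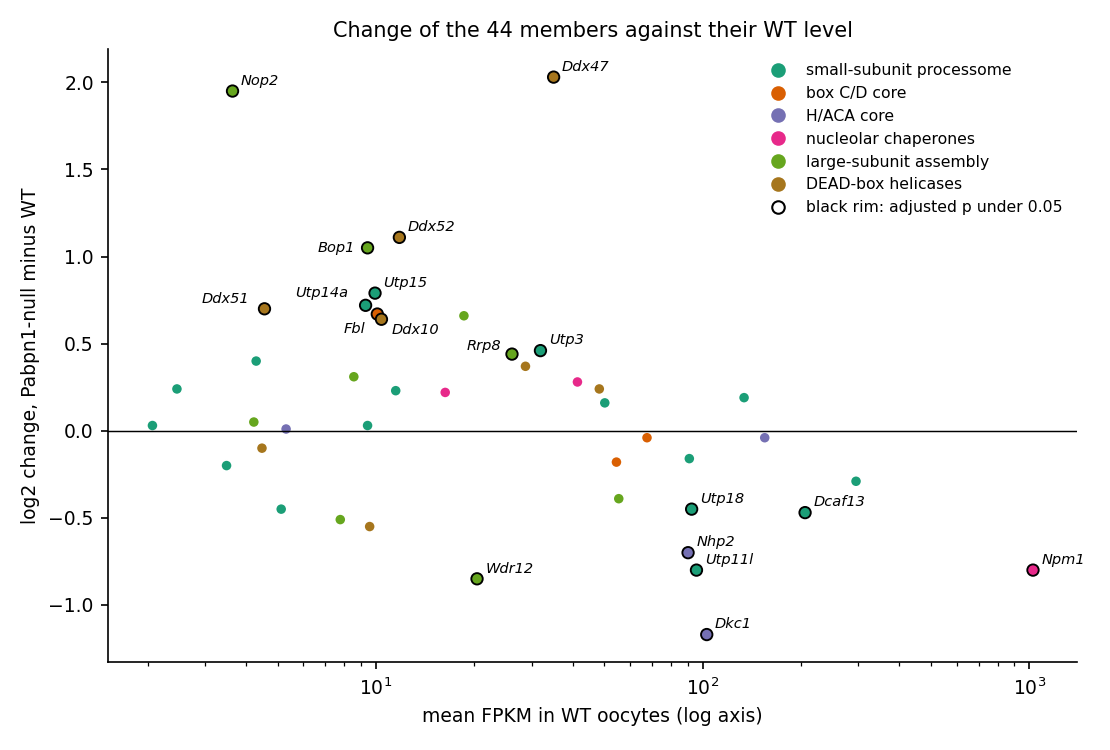
Log2 change as deposited (Pabpn1-null minus WT) of the 44 members against their mean FPKM in WT oocytes (log axis), colored by role, with a black rim for an adjusted p under 0.05. Called members with WT means below that of Wdr12 (20.4 FPKM) lie above 0, and Npm1, Dcaf13, Dkc1, Utp11l, Utp18 and Nhp2, at WT means of 90.3 to 1027 FPKM, lie below it. With spike-in scaling 34 of the 44 points lie below 0.

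Other factors of the pathway were read from lists of the same kind. Of 34 other small-subunit factors tested, 14 were higher and 4 lower as deposited (3 and 7 with spike-in scaling). Of all rows, 27.9% were higher and 20.2% lower as deposited, and 9.39% and 35.5% with spike-in scaling. The highest rises were those of Wdr36, Tbl3 and Wdr43, WD-repeat subunits of the processome, with 155 ± 11.5, 22.9 ± 5.17 and 58.4 ± 4.40 FPKM in Pabpn1-null, against 45.2 ± 8.52, 9.25 ± 1.54 and 26.1 ± 2.01 FPKM in WT oocytes (SD, n = 3 each). Their log2 changes were 1.76, 1.21 and 1.13, and 1.21, 0.69 and 0.59 with spike-in scaling, where each was still called. The falls were led by Riok2, a kinase of pre-40S maturation, with 10.1 ± 1.73 FPKM in Pabpn1-null and 30.3 ± 2.21 FPKM in WT oocytes (SD, n = 3 each, log2 change -1.51), before Pno1 (-0.66) and the endonuclease Fcf1 (-0.56), which was not called with quantile normalization (-0.10). Of 45 other large-subunit factors tested, 16 were higher and 6 lower (3 and 17 with spike-in scaling). Tex10, Ddx31 and Urb2 had log2 changes of 1.17, 1.05 and 1.02, and Sbds, which readies the 60S subunit for translation, of -0.92, with 70.0 ± 2.99 FPKM in Pabpn1-null and 134 ± 13.8 FPKM in WT oocytes (SD, n = 3 each). Ebna1bp2 and Rpf1 had log2 changes of -0.75 each. Of the 11 factors that assemble snoRNA particles, 1 was higher and 4 lower, and 5 were lower with spike-in scaling.

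Naf1, which H/ACA particles need before Gar1 joins them, had 0.905, 0.943 and 0.938 FPKM in Pabpn1-null, against 3.68, 5.68 and 1.54 FPKM in WT oocytes (log2 change -1.16, adjusted p = 0.0121). The box C/D assembly factors Znhit6 and Znhit3 had log2 changes of -0.77 and -0.66, and the ATPase Ruvbl2 of 0.55. Shq1, another H/ACA assembly factor, was at 4.78 ± 0.278 FPKM in Pabpn1-null and 4.94 ± 0.231 FPKM in WT oocytes (SD, n = 3 each) and was not called (-0.04). The call of Znhit3 was lost without Pabpn1-null replicate 2 (-0.59) or WT replicate 1 (-0.52), and that of Ruvbl2 without Pabpn1-null replicate 1 (0.55) or 2 (0.52) and with spike-in scaling. With no filter on low rows the calls of Naf1, Znhit3 and Ruvbl2 were lost. Over the 3 lists, 31 of 90 factors tested were higher and 14 lower, or 50.0%, against the 48.1% of all rows.

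The sequences at the annotated 3′ ends are shown for called members because capture was by the poly(A) tail. The last 40 bases of the annotated transcript held AATAAA in 16 of the 44 members, ATTAAA in 9 and neither in 19, so that 56.8% held a signal, against 72.8% of the 11553 rows. Among the called members a signal was found in 7 of 11 higher and 4 of 7 lower. The 30 bases around it are given 5′ to 3′ on the gene's strand in mm9 for the 3 largest rises and the 3 largest falls with a signal, with the hexamer in capitals.
Ddx47, chr6:134973765-134973794, plus strand: ttatgATTAAAgatgtatttttattacctg
Ddx52, chr11:83776561-83776590, plus strand: ataaactgctctagagAATAAAaactaaaa
Bop1, chr15:76283426-76283455, minus strand: gctttattgggcAATAAAttggggcaccac
Dkc1, chrX:72355087-72355116, plus strand: ttttATTAAAagtctgaggtttatgtccta
Wdr12, chr1:60133712-60133741, minus strand: gcAATAAAaaaaaaaaatagtctttcctga
Dcaf13, chr15:38978371-38978400, plus strand: AATAAAagtcctgagtctggtttaatagta
Both hexamers stood on each side, AATAAA in Ddx52, Bop1, Wdr12 and Dcaf13 and ATTAAA in Ddx47 and Dkc1. Nop2, Nhp2, Npm1 and Utp11l, which were called under every alternative, had neither hexamer in that window of the annotation.

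Promoter motifs, which played no part in the choice of the members, were compared next. Of the 44 members, 36 had a promoter in the RefSeq table (GRCm38.p6, 250 bases before to 50 after the start), set against 17492 coding genes. These 17492 genes were taken whether or not they were expressed in the oocytes, while all members were expressed. Motifs were not counted over expressed genes alone, so a trait of expressed genes cannot be told apart from one of the members. CTTCCG, the core bound by ETS factors, was found on either strand in 24 of the 36 (66.7%), against 23.5% of coding genes, and ACTTCCG, which contains it, in 13 (36.1%), against 9.39%. It was in 7 of the 9 higher and 3 of the 4 lower members with a promoter, so it was common on both sides. CACGTG, the E-box bound by MYC and related factors, was in 5 (13.9%, against 8.91%), GGGCGG in 24 (66.7%, against 49.2%), CCAAT in 19 (52.8%, against 42.3%) and TATAAA in 2 (5.56%, against 14.8%). GGAAGT, which overlaps ACTTCCG on the other strand, was in 20 (55.6%, against 27.7%). Of the other motifs of up to 8 letters, also searched on both strands, TTTAAA was in 4, TCGCGA in 2, and TGACGTCA in 1, against 13.8%, 3.81% and 2.54% of coding genes. Longer motifs bound by NRF1, ZBTB33, ZNF143 and YY1 were also searched and are not given here. The 120 bases before the start are shown for 2 higher members (Nop2, Utp3) and 2 lower members (Nhp2, Utp18), with CTTCCG or its complement CGGAAG and CACGTG in capitals.
Nop2, chr6:125131763-125131882, plus strand: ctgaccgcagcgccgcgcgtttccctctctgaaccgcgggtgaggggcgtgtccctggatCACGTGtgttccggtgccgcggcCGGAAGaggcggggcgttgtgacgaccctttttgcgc
Utp3, chr5:88554342-88554461, plus strand: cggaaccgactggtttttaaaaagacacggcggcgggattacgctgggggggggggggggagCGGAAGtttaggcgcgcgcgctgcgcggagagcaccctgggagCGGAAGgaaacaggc
Nhp2, chr11:51619653-51619772, plus strand: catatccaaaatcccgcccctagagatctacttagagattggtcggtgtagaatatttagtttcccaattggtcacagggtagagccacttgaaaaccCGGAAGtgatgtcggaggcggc
Utp18, chr11:93885767-93885886, minus strand: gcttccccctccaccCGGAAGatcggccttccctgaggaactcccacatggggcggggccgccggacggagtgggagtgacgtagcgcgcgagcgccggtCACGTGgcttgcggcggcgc
Nop2, which rose, and Utp18, which fell, both carried an E-box and an ETS core in this window. They were the only called members with CACGTG, which was in 1 of the 9 higher and 1 of the 4 lower members with a promoter. A match describes the letters and is not a bound site.

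Some members are less certain than others because of the genome around them. Ddx18, Fbl, Imp3, Nhp2, Npm1 and Pes1 had at least 1 other place in mm9 that matched 50% or more of their transcript at 90% identity or above (6 places for Npm1), with which uniquely mapped reads could be lost. Without these 6 members, 10 of 38 were higher and 5 lower, against 27.9% and 20.2% of all rows. Whether strand was used in counting is not stated. Reads of Dkc1, Nhp2, Wdr12 and Rrp8 cannot be told apart from those of the antisense genes Mpp1, Rmnd5b, Carf and Ilk where they overlap. The same holds for Bop1 with Heatr7a and Scx, for Utp14a with 9530027J09Rik and for Dcaf13 with n-R5s39. Dkc1, Ncl, Nop56 and Nop58 carry snoRNA genes within their introns or exons, and of these Dkc1 alone was called as deposited.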

How the data were processed

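RNA of 3 Pabpn1-null and 3 WT samples of 10 growing oocytes was sequenced after Smart-seq2. The authors mapped reads to mm9 with TopHat2 2.1.1 and deposited FPKM from Cufflinks 2.2.1 with 1 added, which was subtracted. The table holds no read counts and 0 ERCC rows, so the number of reads behind a value is not given, and each SD is the spread of 3 samples. Only the relative depth of the samples was estimated, from the steps of the lowest values. The study lists total reads for each sample, which were not used here. Groups and replicates came from the sample labels. Rows above 1 FPKM in at least 1 sample were tested with limma 3.58.1 in R 4.3.3 (trend, genotype as the only term) on log2(FPKM + 1), a scale that understates changes of low transcripts, with Benjamini-Hochberg adjustment and a threshold of 0.05. The step was tested on simulated data. Coordinates, lengths and GC content came from GENCODE vM1 on mm9, and copies were searched with blastn 2.17.0. Values in every sample were given for members past the threshold, with full statistics for up to 4 rises and 4 falls in each role. From each wider list up to 3 rises and 3 falls were named, and Nhp2l1 was added to these for its place in the box C/D core. Other members shown per sample were chosen after their values were seen. The members and lists were chosen with earlier results of these data known. The alternatives changed the pseudocount (0.1), the filter (none, or a mean of 5 FPKM or more), the scaling (to equal totals, by median of ratios, by quantiles, by spike-in) or the fit (no trend, robust, a replicate block), or left out 1 sample. Leaving out members with copies was added after the data were seen.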

Additional observations from a re-analysis of the deposited data

How the results depend on the processing

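Of the 18 members called as deposited, 6 (Dkc1, Nhp2, Nop2, Npm1, Utp11l and Wdr12) kept call and direction under all 16 alternatives, and 10 kept them without any 1 sample. Scaling of the samples mattered most. With spike-in scaling 1176 rows were higher and 4445 lower, 2 members were higher and 16 lower, 6 wider factors were higher and 29 lower, and the median log2 change of the members was -0.38. That median was 0.28 at the same total FPKM, 0.0 with median-of-ratios scaling and 0.21 with a mean of at least 5 FPKM. Of the members, 6 were higher with no filter, 6 with quantile normalization, and 5 to 11 without any 1 sample. Over all rows, 3491 were higher as deposited, 2681 with no filter, 2919 with quantile normalization and 2528 to 3402 without any 1 sample. Some log2 changes turned sign under an alternative. Of these, Utp3, Rrp8 and Ruvbl2 had been called higher as deposited (0.46, 0.44 and 0.55), and the others had not been called. The spike-in factors lower the log2 change of each member, and the cause of the other turns was not tested. With spike-in scaling the sign turned for Utp3 (-0.08), Heatr1 (-0.06), Nol6 (-0.17), Mphosph10 (-0.39), Imp3 (-0.36), Nop14 (-0.29), Nop16 (-0.40), Ncl (-0.27), Nolc1 (-0.31), Gar1 (-0.46), Rrp1b (-0.20), Rrp8 (-0.10), Rrp9 (-0.48), Rrp12 (-0.35), Ddx18 (-0.31), Ddx56 (-0.17) and Ruvbl2 (0.0). At the same total FPKM Imp4 (0.04), Nop56 (0.16), Nop58 (0.02), Nop10 (0.16) and Ddx21 (0.06) turned. With median-of-ratios scaling Nop16 (-0.04), Gar1 (-0.09), Rrp9 (-0.08) and Rrp12 (-0.05) did, with quantile normalization Nop16 (-0.13), Nop10 (0.10), Gar1 (-0.16), Rrp9 (-0.14) and Rrp12 (-0.13), and with a pseudocount of 0.1 Rrp12 (0.0). Without any 1 sample the log2 change ranged over -0.04 to 0.45 for Nol6, -0.07 to 0.19 for Nop16, -0.22 to 0.08 for Nop56, -0.38 to 0.01 for Nop58, -0.13 to 0.08 for Nop10, -0.17 to 0.13 for Gar1, -0.08 to 0.11 for Rrp9 and -0.30 to 0.23 for Rrp12.

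Same-numbered samples did not deviate together (correlations of -0.014, -0.023 and 0.013 over 7878 rows). The study used littermates as WT controls but does not say which samples share a litter. Such correlations cannot show whether samples were paired by litter or preparation, and the main fit left pairing out. With the replicate number as a block, 10 members were higher and 7 lower, against 3478 and 2528 of all rows, and the call of Utp3 was lost (adjusted p = 0.0601 from limma). The table does not show how many reads stand behind a value, which limits the low members. FPKM is per length, so at a like FPKM a short transcript rests on fewer reads than a long one. Among the low members, Nop16 and Gar1 have annotated transcripts of 790 and 1271 bases. Those of Rrp12, Nol6 and Utp20 have 4319, 4599 and 8831 bases.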
